A study of Mus musculus with 14 samples.

Results

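Growth hormone drives the liver to make IGF1, and the genes followed here are 7 that lie on that route: the receptor genes Ghr and Prlr, the secreted factors Igf1 and Igfals, the urinary protein genes Mup3 and Mup20, and the repressor gene Bcl6. They were selected on their levels in the same 4 groups of mice, so those levels are given as a description and carry no test. All 7 were among the 17656 genes of the expression tables, and all 7 passed the filter on low values in every comparison. Liver RNA came from 14 mice aged 8 weeks, 1 library per mouse. The groups were wild-type littermates given saline (WT saline, n = 3), Ythdf1-/- mice given saline (KO saline, n = 3), wild-type mice given concanavalin A (WT ConA, n = 4) and Ythdf1-/- mice given concanavalin A (KO ConA, n = 4). Concanavalin A (ConA) is a plant lectin that activates T cells and causes an acute immune hepatitis, and it was injected into the tail vein at 8 mg/kg. Livers were taken 8 h after the injection of ConA or saline. Ythdf1 encodes a reader of m6A, a methyl mark on RNA, and the knockout, made with CRISPR/Cas9, affects every cell of the animal.

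In the liver, growth hormone binds the receptor encoded by Ghr, the attached kinase JAK2 phosphorylates STAT5, and STAT5 enters the nucleus and switches on Igf1, Igfals, Socs2, Cish and many sex-biased genes. IGF1 leaves the liver and circulates in a complex with a binding protein and the acid-labile subunit encoded by Igfals, which lengthens its stay in the blood. Male and female rodents secrete growth hormone with a different rhythm, and this sets the sex bias of many liver genes, among them the major urinary protein (MUP) genes. SOCS proteins and the phosphatases PTPN1 and PTPN2 dampen the JAK2 and STAT5 relay, inflammatory cytokines are known to make liver cells resistant to growth hormone, and BCL6 is a repressor that can occupy STAT5 sites.

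The files gave each gene as TPM, a share of all transcripts corrected for transcript length, so that levels can be compared between genes, and the number of reads behind it is unknown. WT saline 2 and WT saline 3 were nearly alike, with a median absolute log2 difference of 0.0645 over 5277 genes against 0.115 to 0.401 in the other 17 pairs of one group. WT ConA 3 and KO ConA 3 stood farthest from the rest of their groups, at a median of 0.369 and 0.273 on the log2 scale. The knockout label could not be checked, since Ythdf1 was listed between 12.03 and 13.92 TPM with saline in WT and between 18.44 and 20.77 TPM in KO, and after ConA between 18.74 and 25.63 TPM in WT and between 15.54 and 26.17 TPM in KO. With saline, all KO values were thus above all WT values. A whole-gene value would also count any RNA left outside a deleted part, whose place is not known here, and this was not tested. The study describes the mice as male. Y-linked Ddx3y was at most 0.02 TPM and Y-linked Eif2s3y at most 0.07 TPM in all 14 libraries, beside 29.17 to 91.99 TPM for the X-linked Eif2s3x, so these genes did not match the stated sex in any group. Another Y-linked gene, Uty, was listed at 0.87 to 2.12 TPM. The liver identity of the samples was plain: the summed level of 8 hepatocyte markers was between 101595 and 127486 TPM in the saline livers.

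The sequences in front of the start sites of these genes are shown because STAT5 is the relay between the receptor and its targets. The letters searched were TTCNNNGAA, the core of a STAT5 site, which reads the same on both strands. RefSeq promoter windows of GRCm38.p6, each 250 bases before to 50 bases after an annotated start, were given for 6 of the 7 genes, and Mup20 had no entry. Of 12 windows, 5 held the letters, and these belonged to Igfals, Bcl6 and Prlr, 3 of the 6 genes. Over all 32851 windows 8.3% held them, and over all 27025 genes 9.55% had at least 1 such window. The 250 bases before 5 of the starts are printed 5′ to 3′ with the match in capitals. They were chosen from the windows with a match that lie outside annotated coding sequence and untranslated regions, plus the first start of Ghr, which had none.
Igfals start A, chr17:24877594-24877843, plus strand: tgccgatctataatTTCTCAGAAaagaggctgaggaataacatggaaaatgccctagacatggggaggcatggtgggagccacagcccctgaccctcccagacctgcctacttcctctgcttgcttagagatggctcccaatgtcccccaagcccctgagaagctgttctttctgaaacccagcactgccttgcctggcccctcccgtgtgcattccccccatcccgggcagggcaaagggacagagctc
Igfals start B, chr17:24877981-24878230, plus strand: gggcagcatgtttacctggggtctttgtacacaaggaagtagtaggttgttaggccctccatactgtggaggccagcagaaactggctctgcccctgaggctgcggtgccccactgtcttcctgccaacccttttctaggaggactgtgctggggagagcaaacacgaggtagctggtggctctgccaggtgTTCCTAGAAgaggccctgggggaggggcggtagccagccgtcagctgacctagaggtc
Bcl6 start B, chr16:23981284-23981533, minus strand: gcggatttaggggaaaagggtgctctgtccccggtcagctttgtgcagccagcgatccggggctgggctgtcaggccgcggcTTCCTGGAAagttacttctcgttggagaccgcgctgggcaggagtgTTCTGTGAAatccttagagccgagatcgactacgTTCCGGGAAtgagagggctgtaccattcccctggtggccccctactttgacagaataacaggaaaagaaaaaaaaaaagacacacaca
Prlr start B, chr15:10223656-10223905, plus strand: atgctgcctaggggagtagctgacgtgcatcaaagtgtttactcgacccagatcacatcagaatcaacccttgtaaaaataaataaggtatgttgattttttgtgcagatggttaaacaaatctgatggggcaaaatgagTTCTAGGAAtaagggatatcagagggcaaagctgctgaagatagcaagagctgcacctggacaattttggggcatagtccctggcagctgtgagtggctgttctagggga
Ghr start A, chr15:3583353-3583602, minus strand: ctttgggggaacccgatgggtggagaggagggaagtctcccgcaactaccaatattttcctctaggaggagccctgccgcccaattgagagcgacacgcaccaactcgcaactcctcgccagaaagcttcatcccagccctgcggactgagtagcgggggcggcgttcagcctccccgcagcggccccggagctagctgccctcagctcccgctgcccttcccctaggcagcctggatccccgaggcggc
The match in front of Igfals start B began 58 bases before the start, and that of start A 236 bases before it. Bcl6 start B had 3 matches, which began 168, 122 and 88 bases before the start, and the match of Prlr start B began 110 bases before it. No such letters stood in the windows of Ghr, Igf1 or Mup3, which says only that they are not in these windows. A match is a run of letters and not a measured binding site.

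**Figure D1:**
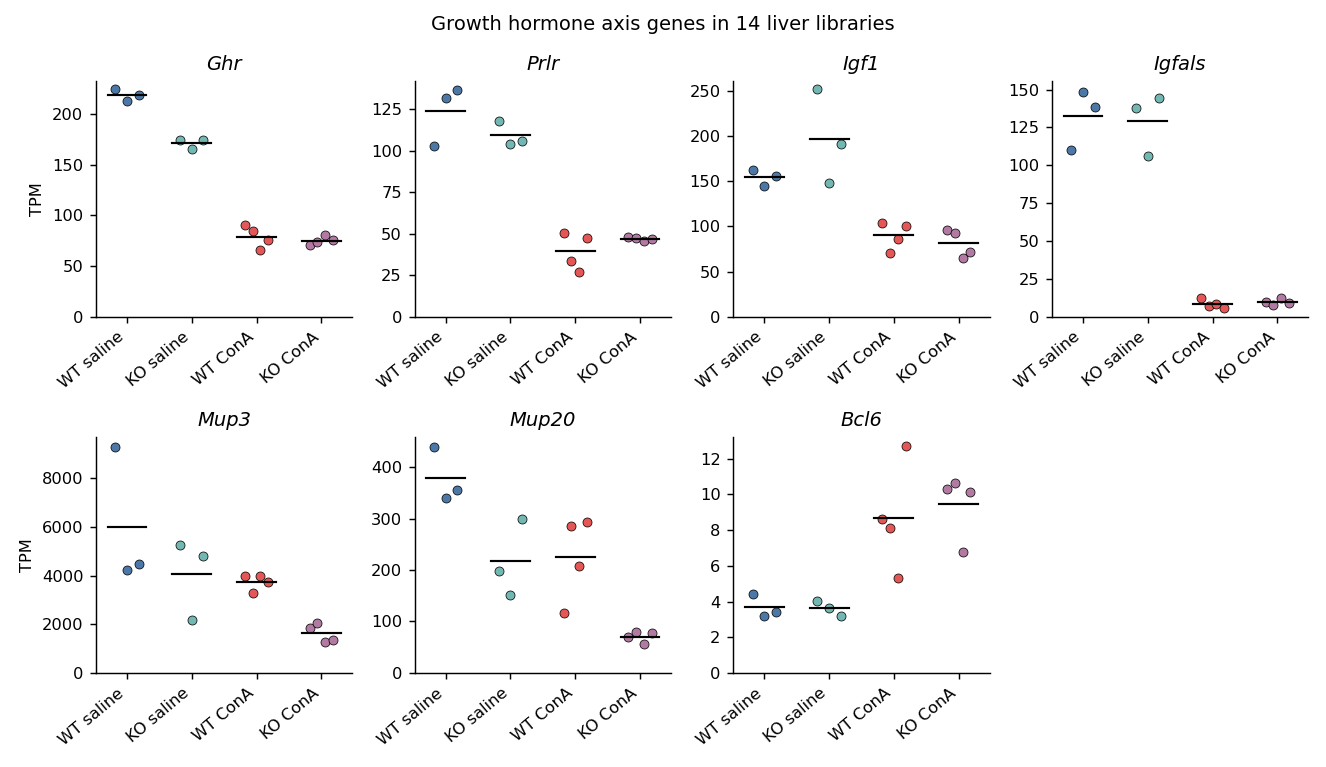
TPM (linear axis from 0) of the 7 genes in each of the 14 liver libraries, by group, with points for mice and bars for group means. Ghr, Prlr, Igf1 and Igfals were lower in every ConA library than in every saline library, Bcl6 was higher, and Mup3 and Mup20 were lowest in KO ConA.

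The receptor genes were both lower after ConA, in both genotypes. Ghr, the growth hormone receptor, had 224.50, 213.00 and 219.04 TPM in the 3 WT saline mice and 174.00, 165.80 and 174.35 TPM in the 3 KO saline mice. It had 90.03, 84.06, 65.80 and 75.88 TPM in WT ConA and 70.71, 73.55, 80.34 and 75.48 TPM in KO ConA. No ConA library reached the lowest saline library of either genotype, and the saline groups did not overlap each other, while the ConA groups did. On the log2(TPM + 1) scale, the difference between ConA and saline was -1.47 (SE 0.133) in WT and -1.18 (SE 0.102) in KO, that is 2.77-fold and 2.27-fold lower. The saline difference of KO against WT was -0.35 (SE 0.0778), and that between the ConA groups was -0.06 (SE 0.13). In unchallenged livers Ghr had a mean of 171 ± 4.84 TPM (SD, n = 3) in KO and 219 ± 5.75 TPM (SD, n = 3) in WT.

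Prlr, the prolactin receptor, which signals through the same JAK2 and STAT5 relay, had 102.78, 131.60 and 136.48 TPM in WT saline and 117.63, 104.01 and 106.12 TPM in KO saline. After ConA it had 50.17, 33.46, 26.81 and 47.42 TPM in WT and 48.25, 47.25, 45.56 and 46.66 TPM in KO. The ConA values of KO lay close together, inside the wider span of WT ConA, and below all saline values. In saline livers the mean was 109 TPM in KO and 124 TPM in WT, a log2 difference of -0.17 (SE 0.125) with overlapping mice. The log2 difference of ConA against saline was -1.66 (SE 0.224) in WT and -1.20 (SE 0.105) in KO. Ghr and Prlr were the pair of members with the most similar pattern, with a root mean square difference of 0.24 between their centred log2 levels over 14 libraries. The ratio of Ghr to Prlr lay between 1.47 and 2.51 in all libraries, so the receptor for growth hormone was the more abundant transcript per length in each.

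Igf1 and Igfals, which code for the hormone and its carrier, were separated by the size of the difference. Igf1 had 162.01, 144.86 and 155.95 TPM in WT saline and 251.50, 147.41 and 191.10 TPM in KO saline. It had 103.53, 69.96, 86.37 and 100.70 TPM in WT ConA and 95.53, 93.09, 65.38 and 72.06 TPM in KO ConA. Every ConA mouse was below every saline mouse, and KO saline spread the widest. The log2 difference of ConA against saline was -0.78 (SE 0.154) in WT and -1.24 (SE 0.193) in KO. Between the saline groups the Igf1 difference was 0.32 (SE 0.181), and without KO saline 1 it was 0.12.

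Igfals had the largest difference of the 7 genes. It had 110.25, 148.48 and 138.37 TPM in WT saline and 137.60, 106.13 and 144.12 TPM in KO saline, and 12.42, 7.37, 8.17 and 5.74 TPM in WT ConA. In KO ConA it had 9.57, 7.58, 12.42 and 9.09 TPM. The lowest saline mouse was thus far above the highest ConA mouse, and the genotypes overlapped within each treatment. The log2 difference of ConA against saline was -3.86 (SE 0.226) in WT and -3.62 (SE 0.171) in KO, which is 14.5-fold and 12.3-fold lower. By mean TPM Igfals ranked 919 of all genes in WT saline and 5527 in WT ConA, whereas Igf1 ranked 815 and 1051. The Igfals to Igf1 ratio with saline lay between 0.681 and 1.02 for WT and between 0.547 and 0.754 for KO, and after ConA between 0.057 and 0.12 for WT and between 0.0814 and 0.19 for KO. Transcripts of the carrier were thus lower relative to those of the hormone in all 8 ConA livers. Of the 3 Igfals windows 2 hold the TTCNNNGAA letters, and the single Igf1 window does not. All 250 bases before that Igf1 start lie in annotated untranslated regions. Whether the letters have a part in these differences was not tested.

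The urinary protein genes differed from the other 5 in that they stood apart between the genotypes after ConA. Mup3 had 9288.65, 4213.12 and 4492.04 TPM in WT saline and 5241.84, 2161.53 and 4808.12 TPM in KO saline. After ConA it had 3977.59, 3274.51, 3992.84 and 3737.13 TPM in WT and 1850.76, 2070.30, 1276.08 and 1361.52 TPM in KO. The ConA groups did not overlap, all KO ConA mice were below all other mice, and WT saline 1 was more than any other library. Between KO ConA and WT ConA the log2 difference was -1.22 (SE 0.169), a level 2.32-fold lower. Against saline the difference after ConA was -0.59 (SE 0.255) in WT and -1.24 (SE 0.291) in KO, and the WT value was -0.22 without WT saline 1.

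Mup20, which codes for the male pheromone darcin, had 439.04, 340.42 and 355.40 TPM in WT saline and 198.67, 151.87 and 299.88 TPM in KO saline. It had 116.32, 284.75, 206.93 and 294.11 TPM in WT ConA and 69.46, 79.12, 55.89 and 76.76 TPM in KO ConA. All 4 KO ConA mice were below every other mouse, and the KO saline mice were below the WT saline mice. The log2 difference of KO against WT was -1.59 (SE 0.264) after ConA, 3.01-fold lower, and -0.85 (SE 0.236) with saline. Against saline it was -0.82 (SE 0.296) in WT, or -0.54 without WT ConA 1, and -1.57 (SE 0.21) in KO. In order of mean level, WT ConA and KO saline were neighbours whose values overlapped, at 226 and 217 TPM.

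**Figure D2:**
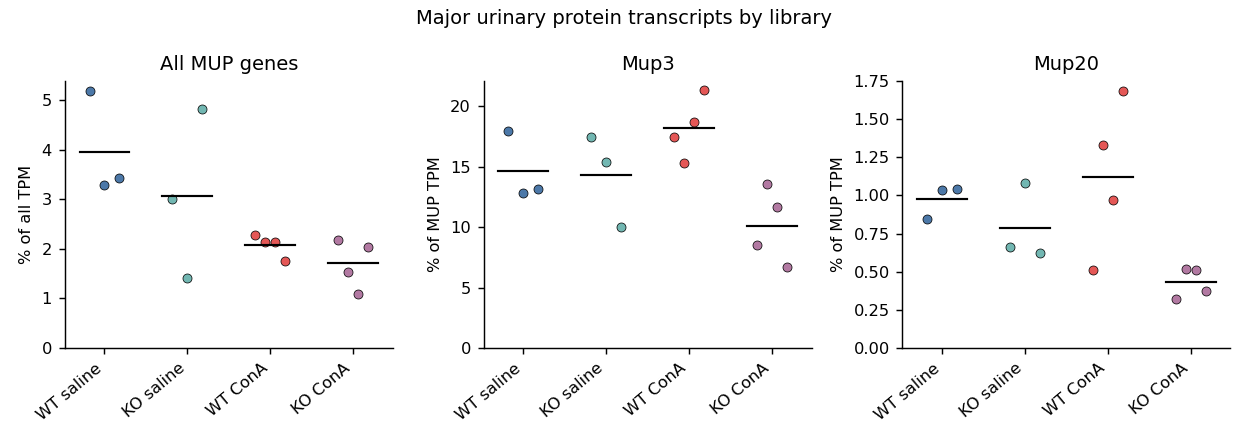
Share of all TPM taken by the 22 MUP genes together (left), and share of that sum taken by Mup3 (middle) and by Mup20 (right), in percent, for each library (points) with group means (bars). Mup3 lay between 6.67% and 13.6% of the family in KO ConA and between 15.3% and 21.4% in WT ConA, while the family sums of these groups overlapped.

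MUP genes lie in a cluster of near-identical copies, so reads of 50 bases can be shared between them. Of all stretches of 50 bases in the transcripts, 84.4% for Mup3 and 49.5% for Mup20 were found in no other gene, against 0% for Mup2, Mup15, Mup19 and Mup22, and the values of the family are uncertain to that extent. The other 5 members had 98.4% (Prlr) or 100% (Ghr, Igf1, Igfals and Bcl6). Of all TPM, the 22 MUP genes together took between 3.29% and 5.18% for WT and between 1.40% and 4.81% for KO with saline, and between 1.75% and 2.28% for WT and between 1.09% and 2.18% for KO after ConA. The family sums of the ConA genotypes overlapped, whereas the shares of Mup3 and Mup20 within the sum differed. Mup3 made up between 15.3% and 21.4% of the sum in WT ConA, against between 6.67% and 13.6% in KO ConA. For Mup20 the span was 0.51% to 1.68% in WT ConA, against 0.318% to 0.52% in KO ConA, so a single WT ConA mouse reached the KO range. Of the 20 MUP genes that are not members, 18 were tested between the ConA genotypes and limma called 0 (4 at an unadjusted p under 0.05), with a median log2 difference of -0.09. The same 20 genes gave 9 lower of 19 tested after ConA in WT and 6 lower of 18 in KO, with medians of -1.01 and -0.43 and 0 higher in either. Over all genes tested, 31.0% were lower and 22.0% higher in WT, and 30.7% lower and 33.9% higher in KO. The KO count of lower genes was thus near the share over all genes. Mup3 and Mup20 were not alone in the family, since Mup14, not called, also separated the ConA genotypes. Its lowest WT mouse had 20.73 TPM, its highest KO mouse 16.03 TPM, and the group means were 80.8 and 11.5 TPM. Only 2.4% of its 50-base stretches were found in no other gene. Mup15 and Mup17 had higher means in KO ConA than in WT ConA, with overlapping mice.

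Bcl6, the repressor, was the one gene of the 7 with a higher level after ConA. It had 4.42, 3.19 and 3.42 TPM in WT saline, 4.04, 3.63 and 3.19 TPM in KO saline, 8.63, 8.11, 5.30 and 12.73 TPM in WT ConA, and 10.33, 10.67, 6.79 and 10.11 TPM in KO ConA. The lowest ConA libraries were WT ConA 3 and KO ConA 3, which also stood apart from their groups over all genes, and both were above all saline libraries. The log2 difference of ConA against saline was 1.01 (SE 0.245) in WT and 1.17 (SE 0.18) in KO, that is 2.01-fold and 2.25-fold higher. Genotypes overlapped under either treatment, with differences of 0.15 (SE 0.238) after ConA and -0.01 (SE 0.127) with saline. Per length it was the least abundant of the 7 in every saline library, with a mean of 3.68 TPM in WT saline, and in WT ConA its mean of 8.69 TPM was next to the 8.43 TPM of Igfals.

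**Figure D3:**
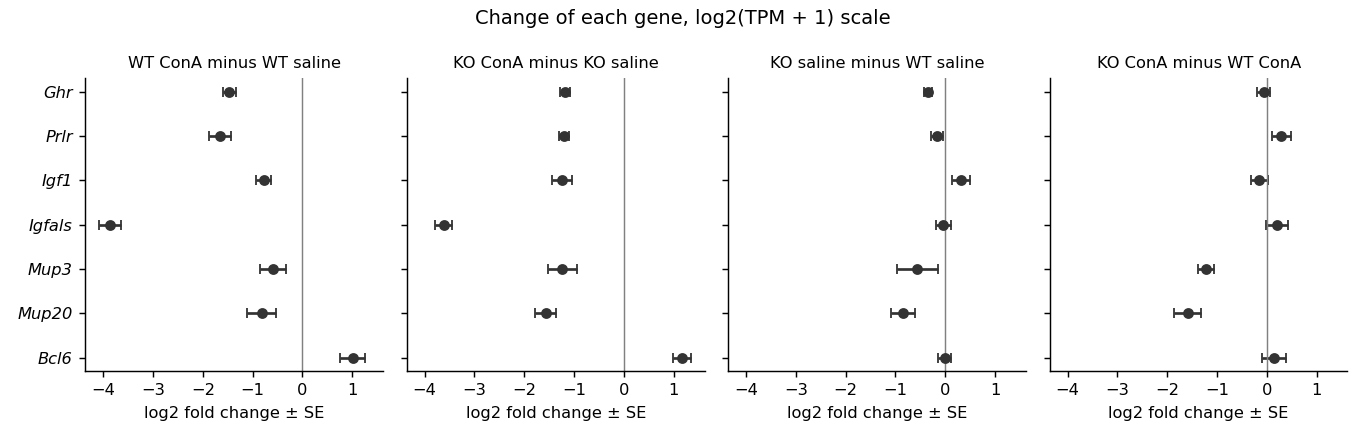
Difference of each of the 7 genes on the log2(TPM + 1) scale (points) with its standard error (bars) in 4 comparisons. Igfals was lowest in both ConA comparisons, at -3.86 and -3.62, and in the comparison of KO ConA with WT ConA the values of Mup3 and Mup20, -1.22 and -1.59, stood apart from the other 5.

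Since the 7 genes were chosen by these contrasts, the number of them past the limma threshold (adjusted p under 0.05 over all genes) is given beside the share of all tested genes, and nothing is read from it. After ConA in WT, 5 of 7 were lower and 1 was higher, where 31.0% of 10768 genes were lower and 22.0% higher. In KO, 6 were lower and 1 was higher, where 30.7% of 10988 genes were lower and 33.9% higher. The comparisons of ConA with saline in the 2 genotypes share no library with each other, but each shares its libraries with the genotype comparisons. Between KO saline and WT saline, 2 of 7 were lower (Ghr and Mup20) and 0 higher, where 12.9% of 10459 genes were lower and 6.30% higher. That background changed with the libraries in the fit. Of 2009 genes called in all, 49 were called with the near-identical WT saline 2 and 3 averaged into 1 sample, and 51 or 45 without the second or the third of them. It was 2234 without WT saline 1, and 286, 640 and 2739 without KO saline 1, 2 and 3. These fits also had fewer samples, and the part of the near-identical mice was not tested. Between KO ConA and WT ConA, 2 of 7 were lower (Mup3 and Mup20) and 0 higher, where 0.0856% of 10519 genes were lower and 0.342% higher. For the difference between the ConA changes of the genotypes, 0 of 7 were past the threshold, where 2.64% of 11327 genes had a higher and 2.14% a lower value in KO. That difference was 0.29 (SE 0.156) for Ghr, 0.46 (SE 0.254) for Prlr, -0.46 (SE 0.265) for Igf1, 0.24 (SE 0.3) for Igfals, -0.65 (SE 0.434) for Mup3, -0.74 (SE 0.399) for Mup20 and 0.16 (SE 0.314) for Bcl6. When the libraries were rescaled to a common median ratio, the Ghr value changed to 0.15, and its saline difference to -0.29.

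In bulk liver, fewer cells of a type and less RNA per cell cannot be told apart, and other markers moved with these genes. After ConA the hepatocyte markers summed to between 56277 and 79477 TPM for WT and between 50283 and 62987 TPM for KO, below the saline range given above, and limma called 6 of the 8 lower and 1 higher in each genotype, with medians of -0.71 and -0.91. The 5 neutrophil markers summed to at most 9.67 TPM in a saline liver, and after ConA to between 310 and 546 TPM for WT and between 406 and 937 TPM for KO. Kupffer cell markers, of resident liver macrophages, summed with saline to between 57.5 and 97 TPM for WT and between 24.6 and 54.3 TPM for KO, and after ConA to at most 19.9 TPM for WT and 16.5 TPM for KO. T cell markers stayed at or under 4.37 TPM and B cell markers at or under 4.11 TPM in all 14 libraries. Between the ConA genotypes, limma called 0 of 8 hepatocyte markers (2 at an unadjusted p under 0.05), with a median of -0.11, beside the values of -1.22 and -1.59 for Mup3 and Mup20. Other markers did differ in level there: the 4 bile duct markers summed to 17.0 to 30.4 TPM in WT ConA against 34.5 to 53.7 TPM in KO ConA, with no overlap. Limma called 0 of the markers of any list between the ConA genotypes, but 2 of 4 bile duct, 3 of 5 neutrophil and 2 of 2 stellate cell markers tested had an unadjusted p under 0.05, with medians of 0.45, 0.63 and 0.79. With saline, limma called 2 of 5 stellate cell, 3 of 4 sinusoidal endothelial and 2 of 4 bile duct markers tested higher in KO livers. Whether these calls depend on the near-identical WT saline mice was not tested, but over all genes 2009 saline calls became 49 with those averaged. The stellate cell sums overlapped: the highest WT saline sum was 59.86 TPM, above the lowest KO saline sum of 56.26 TPM. Kupffer cell and neutrophil markers had negative medians there, -0.58 and -0.18, with 0 called. No defining marker was at 0 throughout a group, and the part of these cells in the results was not tested.

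The rest of the pathway was followed with 4 lists of genes, none of them among the 7, and these genes were tested. The lists were also chosen with earlier results of these data known, so their p-values and counts are not independent evidence. The relay and feedback list has 18 genes of the route from the receptor to STAT5 and its brakes. Of 17 tested, ConA raised 7 and lowered 3 in WT, and raised 11 and lowered 2 in KO, with medians of 0.41 and 0.75 against -0.07 and 0.07 over all genes tested. Of all genes tested, 22.0% were higher and 31.0% lower in WT, and 33.9% higher and 30.7% lower in KO. Socs1, a cytokine-induced inhibitor of JAK kinases, had at most 0.93 TPM in saline livers and 65.52 to 149.97 TPM in ConA livers. It rose by 6.05 (SE 0.257) on the log2 scale in WT, limma adjusted p = 3.97e-07, and by 5.90 (SE 0.196) in KO, adjusted p = 3.89e-09. Socs3, the related inhibitor induced by IL-6, rose by 3.31 in WT and 4.38 in KO, with limma adjusted p = 4.38e-06 and 1.96e-07. Ptpn1 and Ptpn2, tyrosine phosphatases that act on JAK kinases and STAT proteins, rose as well, Ptpn1 by 1.79 and 2.14 and Ptpn2 by 1.79 and 2.97 (limma adjusted p from 2.92e-07 to 4.2e-05). These brakes were high in the same livers in which Ghr, Igf1 and Igfals were low, and a link between the 2 was not tested.

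The feedback genes that growth hormone itself induces did not all go with them, and they are named here for their role, after their values were seen. Socs2 had 30.93, 22.41 and 21.59 TPM in WT saline, 39.63, 10.48 and 52.79 TPM in KO saline, and after ConA between 7.78 and 22.48 TPM for WT and between 18.43 and 22.96 TPM for KO. Its differences after ConA were -0.72 (SE 0.301, limma adjusted p = 0.0719) in WT and -0.44 (SE 0.412, adjusted p = 0.361) in KO, and neither passed. Cish had 5.03 to 10.03 TPM in the saline livers and 13.18 to 28.82 TPM in the ConA livers, and it rose by 1.04 in WT and by 1.47 in KO (limma adjusted p = 0.00183 and 4.19e-04). Jak2 had 3.30 to 4.86 TPM in saline and rose in KO by 1.29 (limma adjusted p = 2.84e-05), while in WT the difference was 0.46 (adjusted p = 0.118). Stat5b, the main STAT5 of the liver, had 9.06 to 12.44 TPM in saline livers, fell by 0.58 in WT (limma adjusted p = 0.0152) and differed by -0.26 in KO (adjusted p = 0.186). For Jak2 and Stat5b the difference between the genotypes' changes did not pass either (0.83, limma adjusted p = 0.0836, and 0.32, adjusted p = 0.381).

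**Figure D4:**
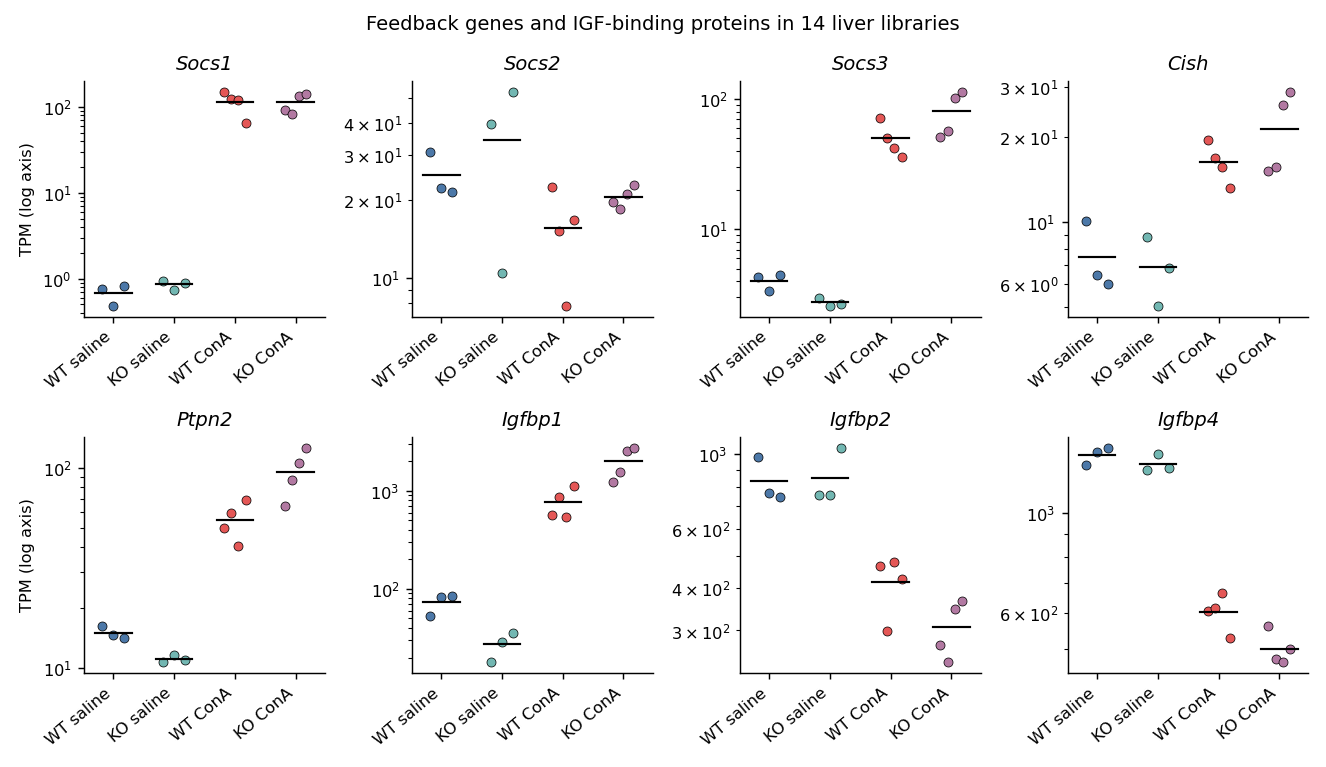
TPM on log axes of 5 feedback genes (Socs1, Socs2, Socs3, Cish, Ptpn2) and 3 IGF-binding protein genes in each library, with points for mice and bars for group means. Socs1, Socs3, Ptpn2 and Igfbp1 were higher and Igfbp2 and Igfbp4 lower in every ConA library than in every saline library, while the Socs2 groups overlapped.

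In the IGF system list (16 genes, of which 9 were tested), ConA raised 2 genes and lowered 5 in WT, and raised 1 and lowered 4 in KO, with medians of -0.67 and -0.70. The shares over all genes were 22.0% higher and 31.0% lower in WT, and 33.9% higher and 30.7% lower in KO. Igfbp1, a binding protein that holds free IGF1 and is induced by fasting and cytokines, had 53.46, 83.39 and 84.42 TPM in WT saline and 17.95, 29.15 and 35.36 TPM in KO saline. It had 570.97, 860.88, 535.77 and 1125.52 TPM in WT ConA and 1220.41, 1552.49, 2563.00 and 2728.65 TPM in KO ConA. KO was thus below WT with saline and above it after ConA, with no overlap of the genotypes in either. The Igfbp1 increase was 3.34 (SE 0.276) on the log2 scale in WT and 6.12 (SE 0.295) in KO, with limma adjusted p = 1.41e-05 and 4.78e-08. The difference of these increases was 2.78 (SE 0.455, limma adjusted p = 0.0114), and it was the only one of the 4 lists to remain called when WT saline 2 and 3 were averaged into 1 sample. Igfbp4 and Igfbp2, abundant binding proteins of the saline liver, fell by 1.15 and 1.01 in WT and by 1.36 and 1.47 in KO (limma adjusted p from 2.04e-06 to 0.00158). Igfbp6 rose in WT by 1.95 (limma adjusted p = 0.00345), and its difference in KO was 0.06 (adjusted p = 0.938). The difference between these changes was -1.89 (SE 0.874, limma adjusted p = 0.192) and did not pass. With saline Igfbp6 varied widely, at 3.96, 0.39 and 0.45 TPM in WT and 18.43, 1.14 and 9.82 TPM in KO. Igfbp5 fell by 1.29 in WT and 2.50 in KO (limma adjusted p = 0.00546 and 1.01e-04). Igf1r, the receptor of IGF1, was at most 0.53 TPM in every library and did not pass the filter.

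Genes with a known sex bias in mouse liver, which follows the rhythm of growth hormone, made up the other lists. Of the female-biased list (29 genes, 27 tested), ConA lowered 16 and raised 1 in WT, and lowered 17 and raised 3 in KO, with medians of -1.39 and -1.12 where those of all genes were -0.07 and 0.07. Cux2, a female-specific transcription factor, had 5.87 to 14.94 TPM in saline livers, and after ConA between 0.05 and 0.11 TPM for WT and between 0.24 and 0.51 TPM for KO. It fell by 3.86 in WT and by 3.0 in KO (limma adjusted p = 9.27e-08 and 2.07e-06). Acot3, an acyl-CoA thioesterase, fell by 5.98 and 3.62, and Abcd2, a peroxisomal transporter of very long chain fatty acids, by 3.54 and 2.09 (limma adjusted p from 4.04e-07 to 9.14e-06). Cyp2b13, a cytochrome P450, fell by 3.83 in WT and 2.33 in KO (limma adjusted p = 9.59e-06 and 6.06e-05). Of the male-biased list (17 genes), 4 of 12 tested fell and 2 rose in WT, and 5 of 10 fell and 1 rose in KO, with medians of -0.18 and -0.71. The male-biased counts in WT are near the shares over all genes, 31.0% lower and 22.0% higher, and in KO the shares over all genes were 30.7% lower and 33.9% higher. No list as a whole was tested. Keg1, a glycine acyltransferase family gene, fell by 4.56 in WT and by 4.67 in KO, and Ugt2b1, a glucuronosyltransferase, by 1.82 and 1.38 (limma adjusted p from 6.06e-07 to 1.57e-04). Susd4 fell by 1.37 in WT (limma adjusted p = 0.00159) and was too low for testing in KO. Cyp2d9 fell by 1.64 and 1.57 (limma adjusted p = 0.0303 and 1.28e-05), and Egfr, the EGF receptor, rose by 1.42 and 1.78 (adjusted p = 0.00169 and 7.21e-04).

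Several sex-biased genes varied widely between mice of one group. Cyp3a41a, a female-specific cytochrome P450, had 3.0 TPM in WT saline 1 and 525.09 and 543.23 TPM in the other WT saline mice, and Sult2a1, a sulfotransferase, had 0.80, 306.31 and 320.11 TPM in the same order. WT saline 1 was also above the other WT saline mice for every gene of the male-biased list except Moxd1, which was at or under 0.03 TPM. It had 51.72 TPM for Slco1a1, an organic anion transporter, against 4.15 and 5.21 TPM, and 10.70 TPM for Cyp4a12a against 0.79 and 0.17 TPM. For Cyp2d9 it had 312.44 TPM against 98.44 and 100.25 TPM, and for Susd4 5.04 TPM against 2.02 and 1.72 TPM. That mouse was the one with the highest Mup3 value of all libraries. In WT ConA, Cyp3a41a had 957.83 TPM in the first mouse and 3.93 to 116.06 TPM in the others. These genes were named after their values were seen, and the part of such mouse-to-mouse differences in the comparisons was not tested.

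**Figure D5:**
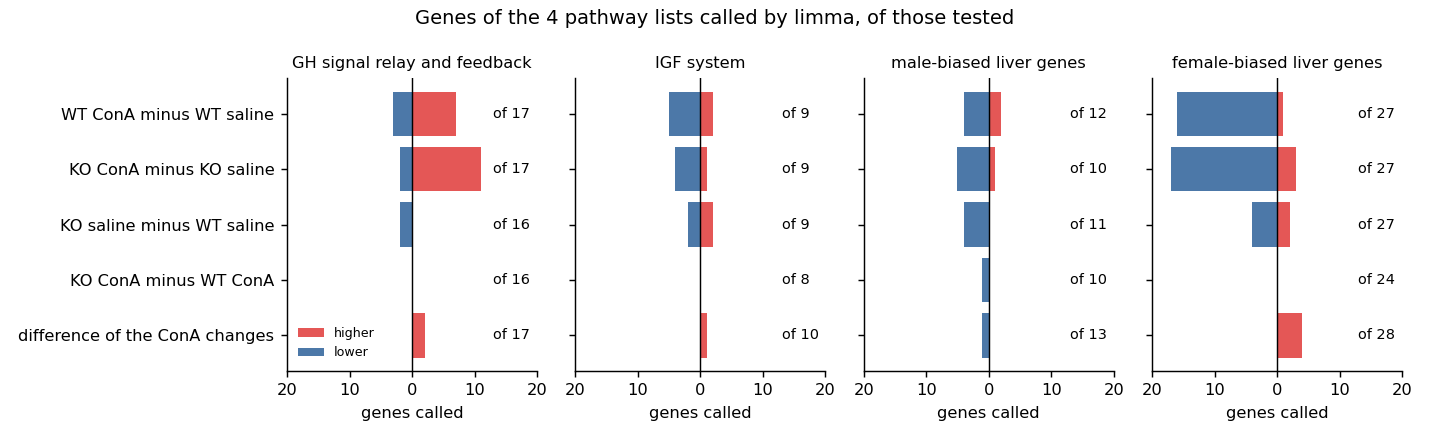
Number of genes called higher (red, to the right) and lower (blue, to the left) by limma at an adjusted p under 0.05 in each of the 4 pathway lists and 5 comparisons, with the number tested at the right. Calls were most frequent in the ConA comparisons, where 16 and 17 of 27 female-biased genes were lower. Over all genes tested, 31.0% in WT and 30.7% in KO were lower.

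Between KO ConA and WT ConA, 1 of 58 pathway genes tested was called, and 24 had an unadjusted p under 0.05 in limma. Over all 10519 genes tested, 45 were called and 1753 had an unadjusted p under 0.05. The called gene was Slco1a1, which had 6.46, 7.55, 6.38 and 31.04 TPM in WT and 1.28, 1.44, 0.15 and 0.10 TPM in KO, a fall of 2.77 (SE 0.464, limma adjusted p = 0.0369). It was not called in 6 of the 8 fits that left out a mouse, with a pseudocount of 0.1 or with no filter. Mup3 and Mup20, which like Slco1a1 are more abundant in male livers, were lower as well. They were selected on their levels in these groups, so the shared direction is no test. The 24 female-biased genes tested had a median of 0.85 and the 10 male-biased genes one of -0.50, against 0.05 over all genes, and limma called 0 of the former (12 at an unadjusted p under 0.05).

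With saline, 16 of 63 pathway genes were called between KO and WT, 4 higher and 12 lower, with a median of -0.18 against -0.10 over all genes. Over all genes tested, 6.30% were called higher and 12.9% lower. Of the male-biased list, 4 were lower: Ugt2b1 by 0.59, Cyp7b1, a steroid hydroxylase, by 0.93, Susd4 by 1.28 and Cyp2d9 by 1.43, with limma adjusted p between 0.0209 and 0.049. In the female-biased list, Hao2 and Cyp3a16 were higher, by 2.18 and 0.99, and Cyp2b10 and Abcd2 lower, the log2 differences being -1.24 and -0.95 (limma adjusted p from 0.0132 to 0.0461). Igfbp1 fell by 1.41 and Insr, the insulin receptor, by 0.36, whereas Igfbp7 rose by 1.96 and Igfbp3, the main partner of IGF1 and the acid-labile subunit in blood, by 1.47 (limma adjusted p from 0.0207 to 0.0382). Ptpn2 and Socs3 were lower by 0.40 and 0.42 on the log2 scale. Between the ConA genotypes their differences were 0.78 and 0.65, with overlapping mice, and neither was called (limma adjusted p = 0.116 and 0.274). Of these saline calls, 0 remained when the near-identical WT saline mice were averaged into 1 sample, and 0 without either of them. These fits also had fewer samples. Leaving out KO saline 1 or KO saline 2 lowered the count as well, while 20 genes were called without WT saline 1. The part of the near-identical mice in the loss was not tested.

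The difference between the ConA changes of KO and WT was called for 8 of 68 pathway genes, where 2.64% of 11327 genes had a higher and 2.14% a lower value in KO. Beside Igfbp1, the change was more positive in KO for Acot3 by 2.36, Abcd2 by 1.45, Rtn4 by 1.40, Cyp4a10 by 1.26, Ptpn2 by 1.18 and Irs2, an adaptor of the insulin and IGF1 receptors, by 1.03 (limma adjusted p from 0.0193 to 0.0471). Gstp1, a glutathione transferase, had a more negative change in KO, by -1.20 (limma adjusted p = 0.0481). With WT saline 2 and 3 averaged, 1 of these 8 remained, and without WT saline 3, 0 did.

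Over the 14 libraries, the genes with the pattern most like each member were found among 6964 genes with a median of at least 5 TPM, by the root mean square difference of centred log2 levels. They were Aldh5a1 (0.125) and Itm2b (0.135) for Ghr, Cyp2c68 (0.169) and Timm8a1 (0.178) for Prlr, and Anapc15 (0.209) and Cyp2c67 (0.223) for Igf1. For Igfals they were Coq8a (0.307) and Gpd1 (0.33), for Mup3 Ces3a (0.346) and C8b (0.392), for Mup20 Paqr9 (0.486) and Ces3a (0.491), and for Bcl6 Tank (0.15) and Srsf1 (0.16). Mup20 thus had no gene as near to it as the receptors had, and Ces3a, a carboxylesterase, was among the nearest of both MUP genes. Mup3 and Mup20 were 0.482 apart, and the farthest pair of the 7, Igfals and Bcl6, was 2.43 apart.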

How the data were processed

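Liver RNA of 14 mice was sequenced as single reads of 50 bases on a BGISEQ-500. The authors deposited 1 table per mouse with TPM, rounded to 2 decimals and summing to 1000000, for 17656 genes, of which 7 were 0 in every library. The submitters' processing notes name Bowtie2, RSEM 1.3.1 and GRCm38.p6, whereas the study's methods name STAR and HTSeq. RSEM divides reads that match several genes and HTSeq usually leaves them out, which bears on the MUP genes. TPM holds no read number, so the depth is unknown and no counting error is given. The study tested read counts, which these tables do not hold, so limma 3.58.1 (R 4.3.3, lmFit and eBayes with a trend) was run on log2(TPM + 1), a scale that understates changes of low genes. A gene was tested if the number of libraries with at least 1 TPM reached the size of the smaller group, and Benjamini-Hochberg adjusted p under 0.05 over all of them was a call. Each of 4 comparisons used its own groups, and the difference of ConA changes used all 14 libraries. The scripts were tested on simulated data.

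The members and the lists were chosen with earlier results of these data known. Named were the members, up to 4 called genes with the smallest p and no overlap of groups per list and comparison, 2 genes per member by likeness of pattern, and MUP genes by range. A gene that this rule names is not reported here. Any other named gene was chosen after its values were seen. Libraries were treated as separate samples, and p-values set a group difference against the spread between them, which eBayes moderates over all genes. WT saline 2 and 3 also counted as separate samples in each WT saline SE, except where averaged. Whether they are separate libraries could not be tested. The settings tried beside these were no filter, a filter at 5 TPM, a pseudocount of 0.1, rescaled libraries, 1 fit of all libraries, a robust fit, a replicate block, averaging of WT saline 2 and 3, and leaving out libraries. Promoter windows were from RefSeq. Shares of 50-base stretches and overlap with coding and untranslated exons came from GENCODE vM21. Protein sequences were not used here. Figures were drawn with matplotlib 3.10.9.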

Additional observations from a re-analysis of the deposited data

Results flagged for a closer look

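In the ConA groups of 4 mice, 38 genes (the 7 members and the named pathway genes) were examined for a mouse far from the other 3, in 76 groups. Dixon's criterion at 95% was passed in 6, where chance gives about 1 in 20 groups. Among the members, Bcl6 stood low in KO ConA 3, at 6.79 TPM beside 10.11 to 10.67 TPM. In WT ConA, Slco1a1 was high in mouse 4 at 31.04 TPM beside 6.38 to 7.55 TPM, Cyp3a16 was high in mouse 1 at 8.90 TPM beside 0.13 to 0.30 TPM, and Ugt2b1 was low in mouse 3 at 30.87 TPM beside 54.43 to 60.65 TPM. Igfbp3 was high in WT ConA 1, at 14.24 TPM beside 4.27 to 5.29 TPM, and low in KO ConA 4, at 4.12 TPM beside 8.48 to 9.06 TPM. WT ConA 3 and KO ConA 3 are also the libraries farthest from their groups over all genes.

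The change after ConA differed between KO and WT by the limma test of the difference for 8 pathway genes. It was more positive in KO for Igfbp1 (2.78 on the log2 scale), Acot3 (2.36), Abcd2 (1.45), Rtn4 (1.40), Cyp4a10 (1.26), Ptpn2 (1.18) and Irs2 (1.03), and more negative for Gstp1 (-1.20). Acot3 and Abcd2 fell in both genotypes and Ptpn2 rose in both, so for these the difference is one of size.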

How the results depend on the processing

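No alternative reversed the direction of a called member or a named pathway gene. Over 580 values of the members, 9 changed sign, 5 for Bcl6 and 4 for Igfals, all where the reported difference was small: Bcl6 between the ConA genotypes went from 0.15 to -0.04 and its difference of ConA changes from 0.16 to -0.03 without WT ConA 3, and with saline it went from -0.01 to at most 0.10 and Igfals from -0.04 to at most 0.10. Of the 580 values, 2 changed by more than the spread between mice, both for Ghr with rescaled libraries. Called pathway genes after ConA kept within 1.5 times their number, 40 in WT and 44 in KO, under every alternative, with 32 to 44 in WT and 42 to 46 in KO when 1 library was left out. The other counts moved, and the cause was not tested beyond the loss of samples or genes. Between the ConA genotypes the count of 1 became 0 with a pseudocount of 0.1, with no filter or without both ConA libraries 3, and 8 with all libraries in 1 fit. It was 0 to 8 when 1 library was left out, the highest without WT ConA 1. For saline, 16 became 7 with no filter, 10 after rescaling, 5 with all libraries in 1 fit and 0 with WT saline 2 and 3 averaged, and 0 to 20 with 1 library left out. That count was 0 without WT saline 2 or 3, 1 without KO saline 1, 8 without KO saline 2 and 20 without WT saline 1. For the difference of ConA changes, 8 became 3 with no filter, 5 after rescaling and 1 with WT saline 2 and 3 averaged, and 0 to 10 with 1 library left out. It was 0 without WT saline 3, 1 without WT saline 2, KO saline 1 or KO saline 2, and 2, 4 and 5 without KO ConA 4, 2 and 1. In the paired analysis with a replicate block, the counts were 3 between the ConA genotypes and 5 for the difference of ConA changes. Deviations of same-numbered libraries correlated at -0.01 to 0.41 and 0 to 0.34 between genotypes and at -0.19 to 0.15 and -0.05 to 0.11 between treatments. Over all genes, the replicate block took the calls from 45 to 140 between the ConA genotypes and from 2009 to 2423 with saline. In the other comparisons it lowered them. The labels give same-numbered mice only a number, and whether they shared a batch was not tested. Rescaling moved the share of higher calls among all genes from 80% to 48% between the ConA genotypes and from 32.8% to 49.1% with saline. What depth limits cannot be stated, since TPM keeps no read number.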
